A study of Rattus norvegicus with 33 samples.

Results

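The genes described here are 6 genes of prolactin signalling: the receptor gene Prlr, the kinase gene Jak2, the transcription factor genes Stat5a and Stat5b, and the feedback genes Cish and Socs2. They were taken by symbol from the platform annotation, out of 18166 genes named by a probe set with a single gene symbol, and each of the 6 had exactly 1 such probe set. A gene entered the tests when 3 or more arrays had a log2 value over 7.645, which is the median of all values of probe sets with 1 symbol, and all 6 genes passed. Prlr exceeded that value in 29 of the 33 arrays and the other 5 genes in all 33.

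The 33 arrays hold total RNA of the fifth caudal mammary glands, left and right, of female Sprague-Dawley rats that were vehicle controls of a chemical exposure study and received olive oil by gavage. The groups were pre-pubertal rats at postnatal day 21 (n = 10), peri-pubertal rats at day 42 (n = 5), pubertal rats at day 63 (n = 5), lactating rats at day 146, on lactation day 28 (n = 3), and parous (n = 5) and nulliparous (n = 5) rats at day 181. The labels give the stage of the lactating rats as end of lactation, and it is called lactation below. Rats of a stage were killed on the same day, without regard to the estrous cycle, so stage and day of collection cannot be told apart. The labels' protocol counts 5 animals per stage while 10 arrays are labelled pre-pubertal, so p-values measure the spread between arrays. The labels give 3 batches. Batches 1 and 2 held 6 and 4 pre-pubertal, 3 and 2 peri-pubertal, and 3 and 2 pubertal arrays, and all 3 lactation arrays were in batch 2. Parous and nulliparous rats each had 3 arrays in batch 1 and 2 in batch 3. Batch 3 was also the only batch extracted with the Zymo kit, which the protocol gives for some fattier adult glands. The other arrays used the Promega kit, so kit, fattier glands and batch 3 cannot be told apart.

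Prolactin is a pituitary hormone that drives growth and differentiation of the milk-producing alveoli and maintains milk synthesis. Its receptor has no kinase activity of its own: it carries the tyrosine kinase Jak2, which phosphorylates STAT5 proteins, and these enter the nucleus and switch on milk protein genes. The closely related genes Stat5a and Stat5b encode these factors, and in mice Stat5a is the form on which alveolar development and lactation mainly depend. Cish and Socs2 are themselves switched on by STAT5 and encode proteins that dampen receptor signalling.

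STAT5 dimers bind the palindrome TTCNNNGAA, which reads the same on both strands. It was searched in RefSeq promoter windows of build GRCr8, each 300 bases long with 250 before and 50 after a start site, and 8.87% of all 33469 windows held at least 1 copy. Of the 6 genes, 5 had windows, 6 in all because Prlr has 2 start sites, and Cish and Prlr each had a window with the motif. The Cish window held 4 copies, at -241, -230, -136 and -119 from the start site, and 2 of all windows (0.006%) held 4 or more. The window of the second Prlr start site held 1 copy, at -176. The other Prlr window and the windows of Jak2, Stat5a and Stat5b had no match to these letters. The start sites of Stat5a and Stat5b lay 9907 bases apart on chromosome 10, on opposite strands. The stretches with the motifs of the 2 genes are shown from -250 to -91, with the motif in capitals, for Cish at chr8:116850719-116850878 and for Prlr at chr2:60909409-60909568, both on the plus strand.
Cish: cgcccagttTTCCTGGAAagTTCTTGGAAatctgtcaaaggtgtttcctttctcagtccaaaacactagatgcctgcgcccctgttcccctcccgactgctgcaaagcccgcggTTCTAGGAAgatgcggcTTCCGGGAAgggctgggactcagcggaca
Prlr, second start site: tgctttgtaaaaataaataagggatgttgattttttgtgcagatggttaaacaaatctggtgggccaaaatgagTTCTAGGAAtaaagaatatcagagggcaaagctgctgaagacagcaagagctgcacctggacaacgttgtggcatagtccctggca

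Among 8 milk protein genes known as STAT5 targets, 5 had the motif in their window. The 41 bases around it in 3 casein genes are shown because these milk genes rise across the stages below; all lie on chromosome 14, with Csn2 on the plus strand and the others on the minus strand. The motif starts at -97 in Csn2 (chr14:20601711-20601751), -102 in Csn1s2a (chr14:20574549-20574589) and -100 in Csn1s2b (chr14:20545694-20545734). The windows of Csn3, Wap and Lalba had no match, although Csn3 and Wap also rise below. Glycam1 had the motif and fell in peri-pubertal relative to pre-pubertal glands. Among 6 growth and survival target genes with a window, 1 had the motif. A match is a description of the letters and does not show binding.
Csn2: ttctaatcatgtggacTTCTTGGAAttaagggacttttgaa
Csn1s2a: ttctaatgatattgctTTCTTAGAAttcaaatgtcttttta
Csn1s2b: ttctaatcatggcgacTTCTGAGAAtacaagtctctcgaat

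Across the 6 stages, 4 of the 6 genes, Prlr, Stat5a, Jak2 and Cish, differed between stages by the moderated F test of limma, fitted with batch, against 65.9% of the 10986 genes tested, so that share is near the background. The adjusted p was 1.38e-09 for Prlr, 4.19e-07 for Stat5a, 8.35e-05 for Jak2 and 0.00346 for Cish, and it was 0.0732 for Socs2 and 0.132 for Stat5b. Without a batch term the F test of Stat5a gave an adjusted p of 0.216 and that of Cish 0.228. Differences below are log2 differences from that model with their SE, and a gene is said to rise or fall where its Benjamini-Hochberg adjusted p over all 10986 genes was under 0.05. Because the model holds batch, a difference can depart from that of the group means. In whole glands, fewer cells of a type and less RNA per cell cannot be told apart.

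**Figure D1:**
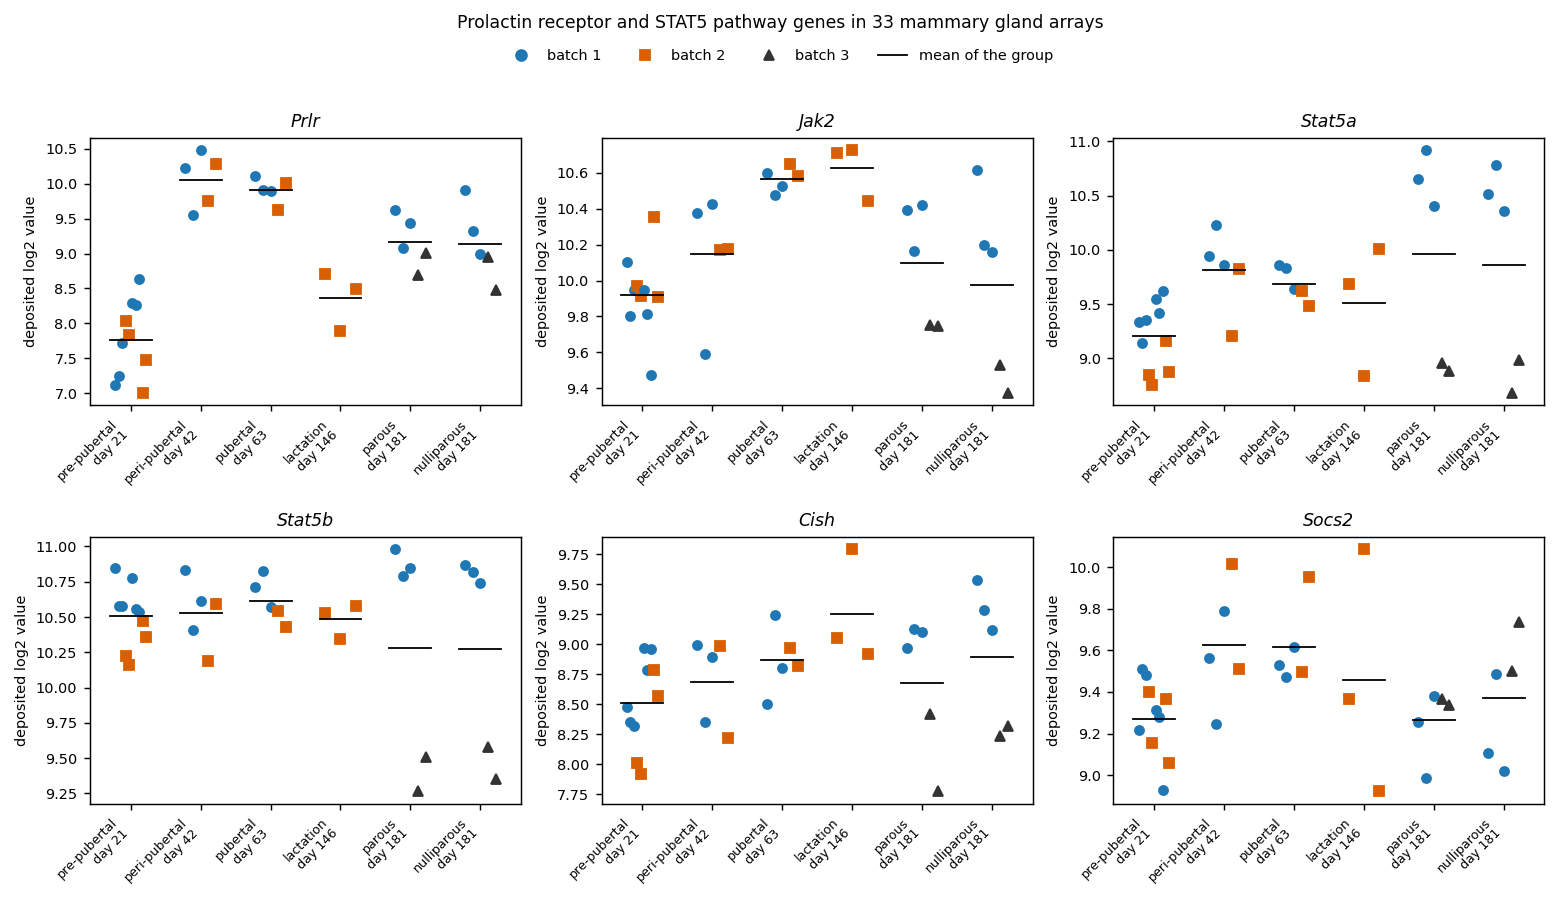
Deposited log2 values (vertical axis) of the 6 genes by stage, 1 point per array, with colour and shape for batch and a line for the group mean. Prlr is lowest in pre-pubertal arrays and highest in peri-pubertal arrays; in Stat5a and Stat5b the batch 3 arrays of parous and nulliparous glands lie below all batch 1 arrays of the same stages.

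Prlr, the receptor, had the widest range of the 6 genes over the stages. In the 10 pre-pubertal arrays its log2 value had a lowest, median and highest of 7.0, 7.78 and 8.64. The peri-pubertal arrays had 10.23, 9.56, 10.48, 9.75 and 10.28 and the pubertal arrays 10.11, 9.91, 9.90, 9.62 and 10.02. Every one of these 10 arrays lay above every pre-pubertal array. The 3 lactation arrays had 8.70, 7.89 and 8.50, within or just above the pre-pubertal range. Parous arrays had 9.62, 9.08, 9.44, 8.69 and 9.01, and nulliparous arrays 9.91, 9.32, 8.99, 8.95 and 8.48. The adult groups overlapped each other and the lactation arrays, and 1 parous and 1 nulliparous array reached the pubertal range.

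Prlr rose by 2.30 ± 0.22 (4.92-fold) in peri-pubertal relative to pre-pubertal glands, with an adjusted p of 1.43e-08, and the groups did not overlap. In this comparison 3 of the 6 genes were called, all higher, against 32.3% of all genes tested. The difference was 2.21 within batch 1 and 2.43 within batch 2, and 0.373% of the genes tested had a larger absolute difference. Of the pre-pubertal arrays, 4 lay under 7.645. From day 42 to day 63 the difference was -0.15 ± 0.25 (adjusted p = 0.83).

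In lactation Prlr fell by 1.43 on the log2 scale relative to pubertal glands (SE 0.31, 0.372-fold, adjusted p = 0.000521), and the 3 lactation arrays all lay below the 5 pubertal arrays. It was the only one of the 6 genes called in this comparison, against 40.7% of all genes. Within batch 2 the log2 difference was -1.46 (adjusted p = 0.00901), and it lay between -1.60 and -1.19 when each array was left out in turn. Against nulliparous glands, which share no batch with lactation, the log2 difference was -0.81 ± 0.36 (adjusted p = 0.0765), where 1 of the 6 genes, Stat5a, was called against 34.9% of all genes. Parous glands were 0.85 ± 0.36 above lactation for Prlr (adjusted p = 0.0659), also with no shared batch, and this difference was -0.009 ± 0.40 with the adipocyte mean as a covariate. Lactation arrays overlapped no other stage in that mean, so this fit cannot tell lactation and fat markers apart.

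Ordered by the model's level, Prlr ran from peri-pubertal through pubertal, parous, nulliparous and lactation to pre-pubertal. Of the 5 neighbouring pairs, the last was the only one called: lactation was 0.72 ± 0.28 above pre-pubertal glands (adjusted p = 0.0305), a comparison in which 4 of the 6 genes were called, against 56% of all genes. Parous glands were -0.58 ± 0.28 relative to pubertal glands, which missed the threshold (adjusted p = 0.227), as did lactation relative to nulliparous glands, given above.

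Epithelial and fat markers moved in the same comparisons as Prlr. Of 17 luminal epithelium genes, 16 rose in peri-pubertal relative to pre-pubertal glands, and their mean log2 value ranged from 9.24 to 9.86 in peri-pubertal arrays and from 6.63 to 9.41 in pre-pubertal arrays. Of 8 tested genes of hormone-sensing luminal cells, the estrogen- and progesterone-receptor-bearing type, 7 rose, and their mean ranged from 9.10 to 9.65 in peri-pubertal arrays and from 7.39 to 9.01 in pre-pubertal arrays. Of 7 basal and myoepithelial genes 4 rose. The share of all genes called in this comparison was 32.3%. With the luminal mean as a covariate, the Prlr rise was 1.5 ± 0.26 (adjusted p = 0.00104).

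In lactation relative to pubertal glands the 2 luminal lists went opposite ways. Of 17 luminal epithelium genes 8 rose and 1 fell, and of 8 hormone-sensing genes 4 fell and 0 rose. Of 7 basal and myoepithelial genes 3 fell and 0 rose. The share of all genes called in this comparison was 40.7%. The luminal mean ranged from 10.18 to 10.75 in lactation arrays and from 9.52 to 9.95 in pubertal arrays. The hormone-sensing mean ranged from 7.66 to 7.91 in lactation arrays and from 8.79 to 9.21 in pubertal arrays, without overlap. Of 13 white adipocyte genes 11 fell, with a mean of 9.29 to 9.63 in lactation arrays and of 10.36 to 10.66 in pubertal arrays. All 9 fibroblast genes fell, with a mean of 10.21 to 10.77 in lactation arrays and of 11.95 to 12.21 in pubertal arrays. The Prlr log2 difference in lactation was -1.95 ± 0.28 (adjusted p = 3.4e-06) with the luminal mean as a covariate and -0.43 ± 0.40 (adjusted p = 0.455) with the adipocyte mean, so its call was lost in the second of these fits. In both means the lactation arrays overlapped no other stage, so neither fit can tell lactation and these markers apart.

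**Figure D2:**
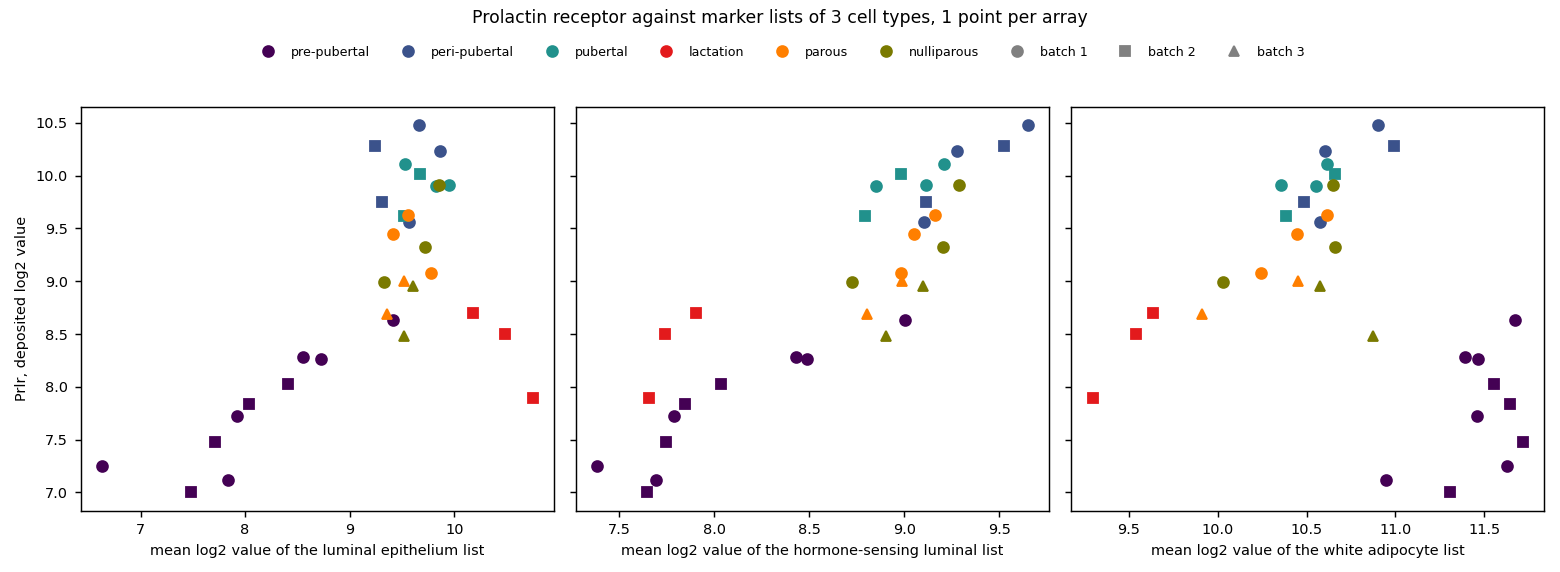
Deposited log2 value of Prlr (vertical axis) against the mean log2 value of the luminal epithelium, hormone-sensing luminal and white adipocyte lists (horizontal axes), 1 point per array, coloured by stage and shaped by batch. The 3 lactation arrays lie at the right of the luminal panel, between 10.18 and 10.75, and at the left of the hormone-sensing panel, between 7.66 and 7.91, with Prlr between 7.89 and 8.70 in both.

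Jak2, the receptor-bound kinase, was higher in pubertal, lactating, parous and nulliparous glands than in pre-pubertal ones in the model with batch. Its log2 values had a lowest, median and highest of 9.47, 9.93 and 10.35 in pre-pubertal arrays. They were 10.38, 9.59, 10.43, 10.17 and 10.17 in peri-pubertal arrays, and 10.60, 10.48, 10.52, 10.65 and 10.58 in pubertal arrays. Every pubertal array thus lay above every younger one. Lactation arrays had 10.71, 10.72 and 10.45, parous arrays 10.39, 10.16, 10.42, 9.76 and 9.75, and nulliparous arrays 10.62, 10.20, 10.16, 9.53 and 9.37. In both adult groups the last 2 values are the batch 3 arrays and are the lowest.

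Jak2 rose by 0.64 ± 0.11 (1.56-fold, adjusted p = 4.33e-05) in pubertal relative to pre-pubertal glands, where 3 of the 6 genes were called against 37.9% of all genes. Neither step on the way was called: the difference was 0.23 ± 0.11 between peri-pubertal and pre-pubertal glands (adjusted p = 0.128) and 0.42 ± 0.13 between pubertal and peri-pubertal glands (adjusted p = 0.102). The second step had 0 of the 6 genes called, against 1.22% of all genes, and Jak2 was called there without the first peri-pubertal array (adjusted p = 0.0368). In lactation Jak2 was 0.63 ± 0.15 above pre-pubertal glands (adjusted p = 0.000633) and 0.40 ± 0.16 above peri-pubertal glands (adjusted p = 0.0431), and 3 of the 6 genes were called between lactation and peri-pubertal glands, against 43.1% of all genes. Relative to pre-pubertal glands it was also higher by 0.51 ± 0.13 in parous glands (adjusted p = 0.00335) and by 0.39 ± 0.13 in nulliparous glands (adjusted p = 0.0226). Lactation and pubertal glands differed by -0.02 ± 0.16 (adjusted p = 0.949). In the order of the model's levels, pubertal, lactation, parous, nulliparous, peri-pubertal and pre-pubertal, no neighbouring pair was called.

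Stat5a, the transcription factor gene, had its highest levels in the model in parous and nulliparous glands. Its log2 values had a lowest, median and highest of 8.76, 9.25 and 9.62 in pre-pubertal arrays. They were 9.94, 10.23, 9.86, 9.21 and 9.83 in peri-pubertal arrays, and 9.86, 9.83, 9.64, 9.62 and 9.48 in pubertal arrays. Lactation arrays had 9.68, 8.84 and 10.01, so this small group spanned more than 1 log2 unit. Parous arrays had 10.65, 10.92 and 10.40 in batch 1 and 8.96 and 8.89 in batch 3. Nulliparous arrays had 10.51, 10.78 and 10.36 in batch 1 and 8.68 and 8.99 in batch 3. The batch 1 arrays of both adult groups lay above every array of the 4 other stages, and the batch 3 arrays below every peri-pubertal and pubertal one.

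In peri-pubertal relative to pre-pubertal glands Stat5a rose by 0.61 ± 0.13 (1.52-fold, adjusted p = 0.000916). The difference was 0.61 in each of batch 1 and batch 2 alone, with adjusted p = 0.00541 and 0.246, and with the luminal mean as a covariate it was 0.48 ± 0.20 (adjusted p = 0.257). Without a batch term its adjusted p was 0.269. In nulliparous relative to pubertal glands it rose by 0.70 ± 0.17 (1.62-fold, adjusted p = 0.0169), the only one of the 6 called, against 4.27% of all genes. Within batch 1, where the nulliparous and pubertal arrays did not overlap, the difference was 0.78 (adjusted p = 0.0154). The call was lost without the third pubertal array (adjusted p = 0.0714) or the second nulliparous array (adjusted p = 0.0797), and without a batch term the difference was 0.18 ± 0.36 (adjusted p = 0.762).

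Relative to lactation, Stat5a rose by 0.72 ± 0.22 in parous glands (1.64-fold, adjusted p = 0.0127), again alone among the 6, against 32.9% of all genes. This difference rests on the batch terms, since parous and lactation arrays share no batch, and on 1 array: without the second lactation array, which had the lowest value, it was 0.38 ± 0.19 (adjusted p = 0.137). It was also lost with the adipocyte mean as a covariate (0.54 ± 0.29, adjusted p = 0.158) and without a batch term (0.45 ± 0.42, adjusted p = 0.433). Of the adipocyte genes 8 of 13 rose in parous relative to lactating glands, their mean ranging from 9.91 to 10.61 in parous arrays and from 9.29 to 9.63 in lactation arrays. As these ranges do not overlap, the fit with that mean cannot tell lactation and fat markers apart. Lactation glands were -0.62 ± 0.22 relative to nulliparous glands (adjusted p = 0.0291) and 0.08 ± 0.19 relative to pubertal glands (adjusted p = 0.756). In the order of levels, parous, nulliparous, peri-pubertal, lactation, pubertal and pre-pubertal, 2 neighbouring pairs were called. Nulliparous glands were 0.57 ± 0.17 above peri-pubertal glands (adjusted p = 0.0434; 1 of the 6 genes called, against 6.12% of all genes). Pubertal glands were 0.48 ± 0.13 above pre-pubertal ones (adjusted p = 0.00569).

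Stat5b, the neighbouring paralog, changed in none of the 6 comparisons, nor in any of the other 9 pairs of stages. Its log2 values had a lowest and highest of 10.16 and 10.85 in pre-pubertal, 10.19 and 10.83 in peri-pubertal, 10.43 and 10.82 in pubertal and 10.35 and 10.58 in lactation arrays, which all overlap. Batch 1 arrays of parous glands had 10.98, 10.79 and 10.85 and those of nulliparous glands 10.87, 10.82 and 10.74, while batch 3 arrays had 9.26 and 9.51 in parous and 9.58 and 9.35 in nulliparous glands. The 6 differences lay between 0.01 and 0.11, with SEs of 0.08 to 0.13 and adjusted p of 0.635 or more. Whether probes of one Stat5 gene also bind transcripts of the other was not tested.

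Cish, the feedback gene with 4 motif copies in its window, was highest in lactation in the model. Its log2 values in lactation arrays were 9.05, 9.80 and 8.92, the second of these being the highest of all 33. Pre-pubertal arrays had a lowest, median and highest of 7.91, 8.52 and 8.97. Peri-pubertal arrays had 8.99, 8.35, 8.89, 8.98 and 8.22, and pubertal arrays 8.50, 9.24, 8.80, 8.97 and 8.82, so the younger groups overlapped widely. Parous arrays had 8.97, 9.13 and 9.10 in batch 1 and 8.42 and 7.77 in batch 3, and nulliparous arrays had 9.53, 9.28 and 9.12 in batch 1 and 8.24 and 8.32 in batch 3.

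Cish changed in none of the 6 main comparisons, which are the panels of the plot of differences. It rose in lactation by 0.85 ± 0.22 relative to pre-pubertal glands (1.81-fold, adjusted p = 0.00185) and by 0.68 ± 0.24 relative to peri-pubertal glands (1.60-fold, adjusted p = 0.0246). In nulliparous relative to pre-pubertal glands it rose by 0.71 ± 0.20 (adjusted p = 0.00699), where 4 of the 6 genes were called against 29.2% of all genes. In lactation relative to pubertal glands the difference was 0.50 ± 0.24 (adjusted p = 0.101), and 0.23 to 0.67 with each array left out. Centring each array on its median gave 0.59 ± 0.24 (adjusted p = 0.0497). No neighbouring pair in its order of levels was called.

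Socs2, the other feedback gene, was measured between 8.92 and 10.09 in all arrays. Peri-pubertal arrays had 9.57, 9.25, 9.79, 10.02 and 9.51, and pre-pubertal arrays a lowest, median and highest of 8.93, 9.30 and 9.51. It rose by 0.36 ± 0.14 in peri-pubertal relative to pre-pubertal glands at an adjusted p of 0.0498, next to the threshold, and lost the call in 11 of the 15 fits that left out 1 array of these groups. Lactation arrays had 9.36, 10.09 and 8.92, which include the highest and the lowest of all 33 arrays. The lactation log2 difference from pubertal glands, whose arrays had 9.53, 9.47, 9.62, 9.50 and 9.96, was -0.21 ± 0.20 (adjusted p = 0.433), and -0.52 (adjusted p = 0.0332) without the second lactation array. That array had the highest Cish and Socs2 and the lowest Prlr, Stat5a and Stat5b of the 3. It also had the highest luminal mean, 10.75 against 10.18 and 10.48, and the lowest hormone-sensing luminal, white adipocyte, fibroblast, endothelium and skeletal muscle means. Its adipocyte mean was 9.29 against 9.63 and 9.54, its hormone-sensing mean 7.66 against 7.91 and 7.74, and its muscle mean 6.81 against 8.16 and 9.34; the part of these in its values was not tested.

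**Figure D3:**
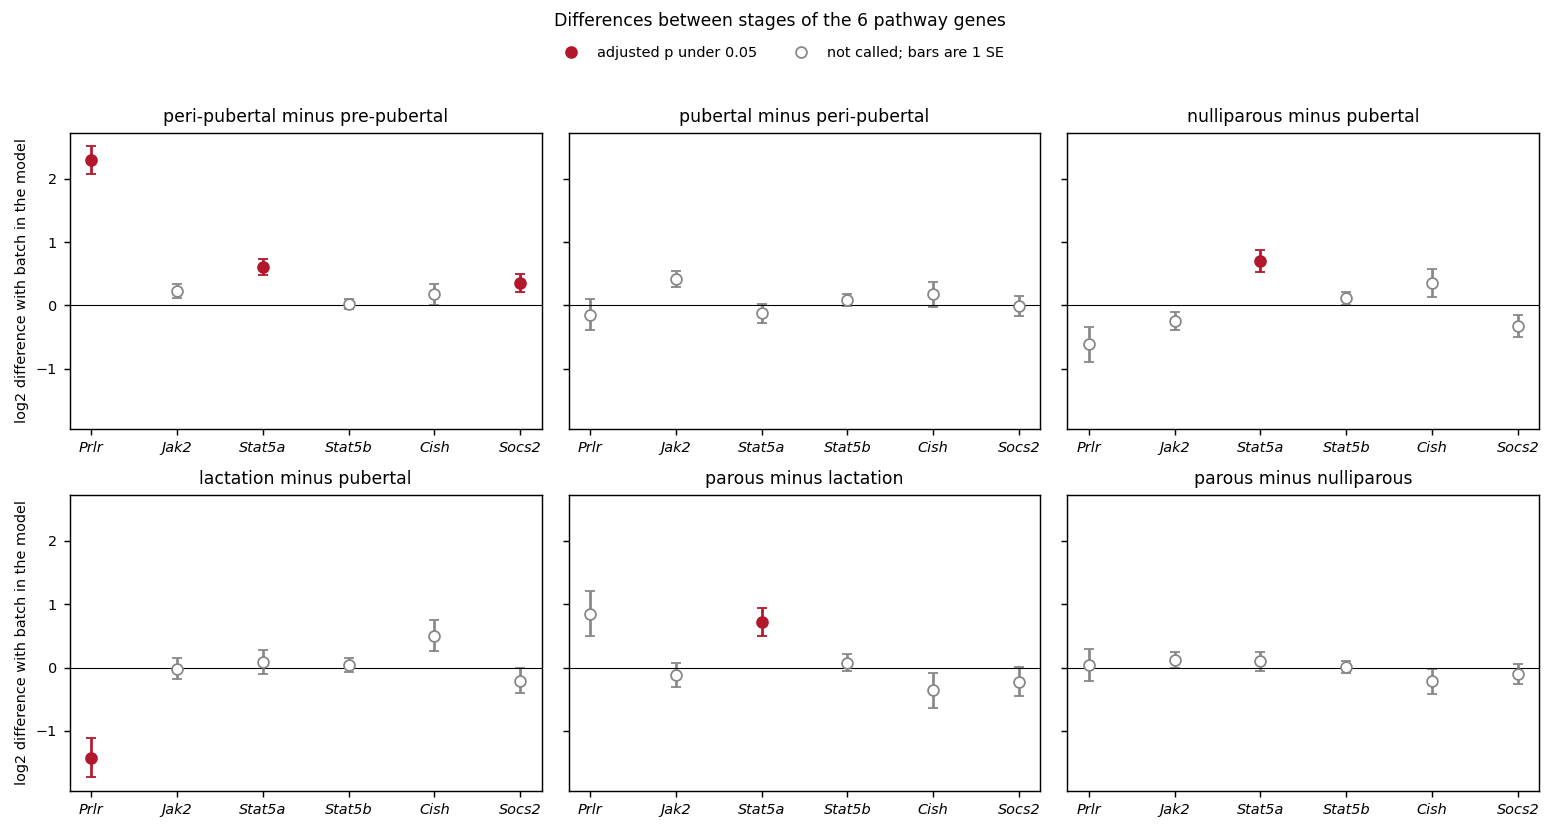
Log2 differences of the 6 genes (vertical axis, points with bars of 1 SE) in the 6 stage comparisons, from the model with batch; filled points passed an adjusted p of 0.05. Prlr rises by 2.30 in the first panel and falls by 1.43 in lactation relative to pubertal glands, and none of the 6 genes is called between parous and nulliparous glands.

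None of the 6 genes changed in parous relative to nulliparous glands of the same age. Prlr differed by 0.04 ± 0.25, Jak2 by 0.12 ± 0.13, Stat5a by 0.10 ± 0.15, Stat5b by 0.01 ± 0.09, Cish by -0.22 ± 0.20 and Socs2 by -0.10 ± 0.16. In limma's test 2 genes of 10986 (0.0182%) were called in this comparison, and 668 had an unadjusted p under 0.05. In the model with batch, both adult groups stood above pre-pubertal glands for Prlr, Stat5a and, as given above, Jak2. In the deposited values of Stat5a and Jak2 both adult groups overlapped the pre-pubertal arrays. The parous, nulliparous and pre-pubertal means were 9.96, 9.86 and 9.21 for Stat5a and 10.10, 9.98 and 9.92 for Jak2. Prlr and Stat5a rose by 1.57 ± 0.25 (adjusted p = 1.76e-05) and 1.28 ± 0.15 (adjusted p = 3.07e-07) in parous relative to pre-pubertal glands, where 3 of the 6 genes were called against 27.8% of all genes.

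Among genes upstream and beside the receptor, the ligand genes Prl, Gh1 and Prl3b1 and the erythropoietin receptor gene Epor did not pass the filter and were not tested. Prl, the gene of prolactin itself, had single high arrays among the adult glands: its highest value was 8.81 in parous arrays, with a median of 4.71, and 9.09 in nulliparous arrays, with a median of 5.18. In the other 4 stages its highest value was 4.72 or less. Of 7 other receptor genes that signal through Jak2, 1 rose in peri-pubertal relative to pre-pubertal glands, the oncostatin M receptor gene Osmr (0.54 ± 0.16), against 32.3% of all genes called. In lactation relative to pubertal glands 3 rose and 1 fell, against 40.7% of all genes called. The 3 included Osmr (1.04 ± 0.23) and the interferon gamma receptor gene Ifngr2 (0.75 ± 0.15). The growth hormone receptor gene Ghr, whose product uses the same kinase and STAT5, fell by 1.17 on the log2 scale (SE 0.27, adjusted p = 0.000932); its arrays ranged from 9.60 to 10.37 in lactation and from 10.95 to 11.73 in puberty. In parous relative to lactating glands 3 fell, against 32.9% of all genes called: Osmr by 1.36, Ifngr2 by 0.88 and Ifngr1 by 0.34 on the log2 scale.

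Of 3 other Janus kinase genes, Jak3, a kinase of lymphoid cells, fell by 0.65 on the log2 scale in peri-pubertal relative to pre-pubertal glands. All 8 T cell and all 6 B cell marker genes also fell there, the T cell mean ranging from 6.47 to 7.91 in peri-pubertal arrays and from 6.68 to 10.35 in pre-pubertal arrays. Their part in the Jak3 result was not tested. Of 3 other STAT genes tested, Stat3, known for its role in involution after weaning, rose by 0.40 ± 0.11 in peri-pubertal relative to pre-pubertal glands and by 0.79 ± 0.15 in lactation relative to pubertal glands. It fell by 1.08 on the log2 scale in parous relative to lactating glands (adjusted p = 3.11e-05). Its lactation arrays ranged from 12.26 to 12.91, above the pubertal range of 11.67 to 12.21.

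Inhibitors of the pathway went both ways. For the counts below, 32.3% of all genes were called in peri-pubertal relative to pre-pubertal glands. The share was 40.7% in lactation relative to pubertal and 32.9% in parous relative to lactating glands. Of 6 other SOCS genes 2 rose in lactation relative to pubertal glands, Socs3 by 1.19 ± 0.32 and Socs5 by 0.45 ± 0.14, and Socs3 fell by 1.28 on the log2 scale in parous relative to lactating glands. Socs3 encodes an inhibitor of cytokine receptor signalling and ranged from 8.23 to 10.08 in lactation arrays and from 7.59 to 8.08 in pubertal arrays. Socs1 fell by 0.39 on the log2 scale in peri-pubertal relative to pre-pubertal glands. Of 11 phosphatase and other inhibitor genes, 3 fell in that comparison, led by Cav1 (caveolin-1, fell by 0.56), Ptpn6 (a phosphatase of blood cells, fell by 0.98) and Sh2b3 (fell by 0.46). Caveolin-1 is also abundant in fat cells, and 11 of 13 adipocyte genes fell in the same comparison. Their mean ranged from 10.49 to 10.99 in peri-pubertal arrays and from 10.95 to 11.72 in pre-pubertal arrays. The part of fat cells in the Cav1 result was not tested. In lactation relative to pubertal glands 4 inhibitor genes rose and 2 fell, led by Cav1 (fell by 0.80), Pias4 (0.57 ± 0.15) and Bcl6 (0.83 ± 0.22), a repressor that competes for STAT5 sites. In parous relative to lactating glands 3 rose and 3 fell, among them Ptpn2 (fell by 1.01) and Cav1 (0.85 ± 0.18). Ptpn2 was also the only gene of these 11 called in pubertal relative to peri-pubertal glands (0.47 ± 0.12, adjusted p = 0.0489) and in nulliparous relative to pubertal glands (-0.65 ± 0.13, adjusted p = 0.00538).

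Among 9 partners and co-activators, the receptor gene Erbb4, whose product can carry STAT5A into the nucleus, followed the direction of Prlr. It rose by 2.06 ± 0.25 in peri-pubertal relative to pre-pubertal glands and fell by 2.54 on the log2 scale (adjusted p = 2.19e-06) in lactation relative to pubertal glands. Its arrays ranged from 6.0 to 6.62 in lactation, all under the filter, and from 8.83 to 9.48 in puberty. Erbb4 then rose by 1.81 ± 0.41 in parous relative to lactating glands. The transcription factor genes Elf5, of alveolar progenitors, and Gata3, of luminal cells, rose by 2.06 ± 0.38 and 1.55 ± 0.21 in peri-pubertal relative to pre-pubertal glands. Nr3c1, the glucocorticoid receptor gene, fell by 0.52 on the log2 scale in lactation relative to pubertal glands, and rose by 0.52 ± 0.13 in parous relative to lactating glands. Of 10 adaptors of other receptor branches, Irs1 fell by 1.05 on the log2 scale and Gab1 rose by 0.65 ± 0.15 in lactation relative to pubertal glands, and both went the other way in parous relative to lactating glands (Irs1 0.89 ± 0.24, Gab1 fell by 0.81).

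Of 8 milk genes that STAT5 is known to activate, 6 rose and 1 fell in peri-pubertal relative to pre-pubertal glands, 2 rose in pubertal relative to peri-pubertal glands and 4 rose in lactation relative to pubertal glands. The shares of all genes called in these comparisons were, in order, 32.3%, 1.22% and 40.7%. The kappa-casein gene Csn3 rose by 6.42 ± 0.21 at the first step; its arrays ranged from 12.61 to 13.17 in peri-pubertal and from 5.46 to 7.84 in pre-pubertal glands. Csn2 rose by 3.46 ± 0.52 at that step and by 2.45 ± 0.60 in pubertal relative to peri-pubertal glands. The gene that fell, chosen after its values were seen, was Glycam1 (fell by 2.28, adjusted p = 0.0489). In lactation Csn1s2b, shown above with its motif, rose by 6.71 ± 0.19 relative to pubertal glands, with arrays from 13.87 to 14.00 in lactation and from 7.12 to 7.56 in puberty. Csn1s2a rose by 4.52 ± 0.90 and the whey protein gene Wap by 4.30 ± 0.79. Lactation arrays had Wap values of 13.73 to 14.03, and pubertal arrays of 7.62 to 12.22. In pubertal arrays the means of Csn3 and Csn1s1 were already 13.40 and 13.36. The highest value deposited was 14.23, and whether the array limits a further rise of these genes was not tested. In parous relative to lactating glands Csn1s2b fell by 6.16 and Wap fell by 3.94 on the log2 scale.

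Of 9 tested growth and survival genes known as STAT5 targets, 1 rose and 3 fell in lactation relative to pubertal glands, against 40.7% of all genes called. The insulin-like growth factor gene Igf1 fell by 1.28 and the cyclin gene Ccnd1 by 0.89 on the log2 scale in that comparison. The survival gene Bcl2l1 rose by 0.59 ± 0.15 there, and each went the other way in parous relative to lactating glands (Igf1 1.05 ± 0.18, Ccnd1 1.22 ± 0.21, Bcl2l1 fell by 0.67). In peri-pubertal relative to pre-pubertal glands 2 of the 9 rose and 2 fell, against 32.3% of all genes called. Elf5, given above, is also on this list and rose, and the cytokine gene Tnfsf11 fell by 1.04 on the log2 scale. The median log2 difference in lactation relative to pubertal glands was 0.01 for the 6 genes, 1.87 for the milk genes and -0.34 for the growth and survival genes, against 0.06 for all genes tested. In peri-pubertal relative to pre-pubertal glands it was 0.29 for the 6 genes, 1.36 for the milk genes and -0.02 for the growth and survival genes, against -0.0001 for all genes. In parous relative to nulliparous glands 0 genes of any of these pathway lists were called, against 0.0182% of all genes tested, so this count is near the background.

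**Figure D4:**
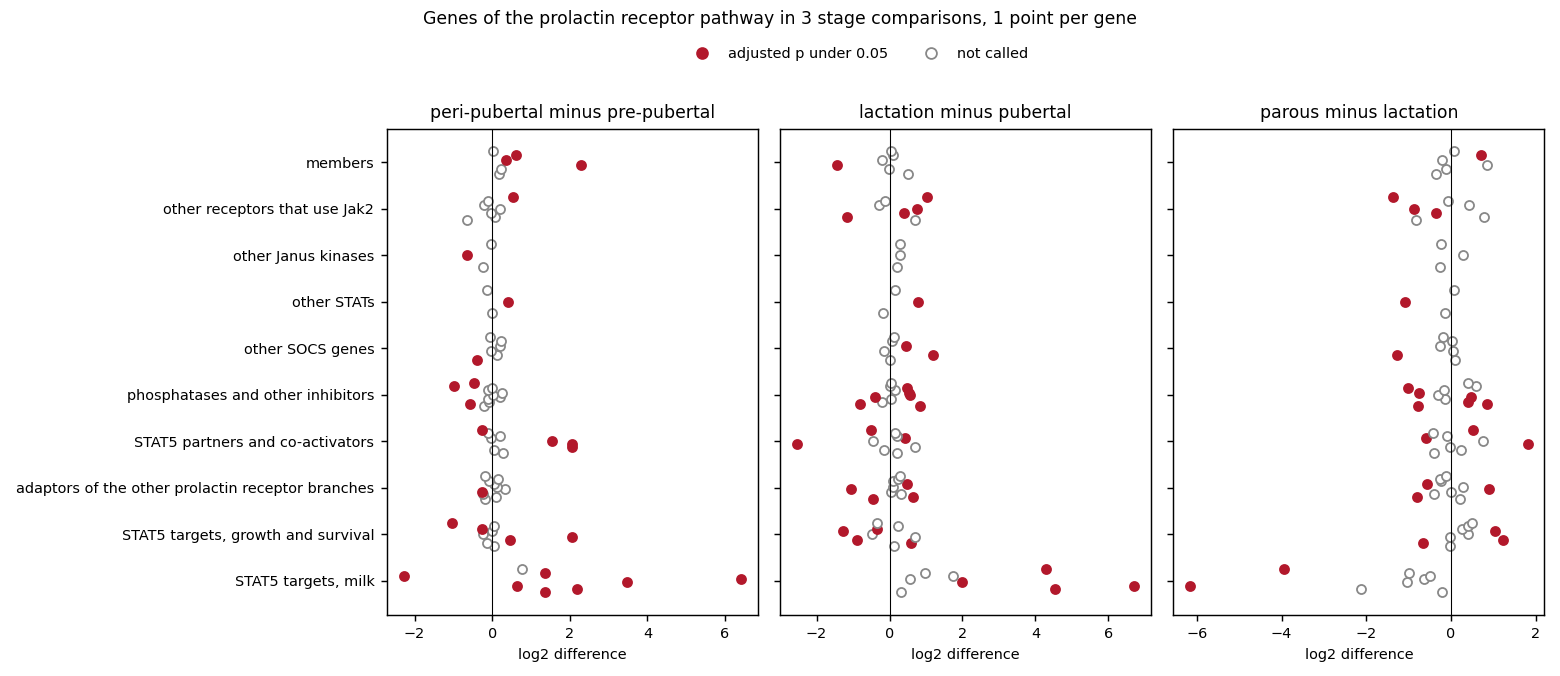
Log2 differences (horizontal axes) of the 6 genes, in the top row, and of the other pathway lists, 1 point per gene, in 3 stage comparisons; filled points passed an adjusted p of 0.05. The milk genes reach 6.42 in the left panel, 6.71 in the middle panel and -6.16 in the right panel, while the 6 genes stay between -1.43 and 2.30.

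Batch shifted most of the 6 genes. Batch 3 relative to batch 1, with stage in the model, was lower in 5 of the 6, against 77.4% of all genes that differed in either direction. Of all 10986 genes tested, 4881 were called lower and 3620 higher in batch 3. The log2 shift was -1.73 ± 0.16 for Stat5a, -1.42 ± 0.09 for Stat5b, -1.0 ± 0.20 for Cish, -0.72 ± 0.13 for Jak2 and -0.62 ± 0.26 for Prlr, and Socs2 had 0.28 ± 0.16 (adjusted p = 0.119). For Stat5b this shift exceeded every stage difference. Batch 2 relative to batch 1 was lower for Stat5a (-0.43 ± 0.11) and Stat5b (-0.28 ± 0.07), 2 of the 6. Of all genes 56.6% differed in either direction, 3872 lower and 2350 higher in batch 2. Whether a stage difference itself differed between batches was tested for 3 pairs: peri-pubertal against pre-pubertal and pubertal against peri-pubertal glands in batch 2 relative to batch 1, and parous against nulliparous glands in batch 3 relative to batch 1. None of the 6 genes was called, and 0% of all genes were called in each of the 3 tests by limma; 244, 305 and 226 genes had an unadjusted p under 0.05. For Prlr the first of these differences of differences was 0.22 ± 0.49.

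The genes most like each member over the 33 arrays, after batch was removed with the stages kept, are given by Pearson's r as a description, since the points share stages. For Prlr they were the water channel gene Aqp5 (r = 0.943), the complement gene C6 (r = 0.938) and the ion channel gene Trpm3 (r = 0.937). Stat5a was most like Dhrs11 (r = 0.939), Nsmf (r = 0.907) and the fatty acid binding protein gene Fabp3 (r = 0.893). Jak2 was most like Ccdc107 (r = 0.864), Hivep3 (r = 0.835) and Ppm1h (r = 0.834). Cish had Hivep3 (r = 0.792), Ncdn (r = 0.781) and Foxp4 (r = 0.777), and Socs2 had Ets2 (r = 0.732), Selp (r = 0.695) and Wdfy1 (r = 0.666). Stat5b had Sigirr (r = 0.776), Surf2 (r = 0.736) and Psenen (r = 0.724). For Surf2 the value was -0.166 in the deposited values of the 29 arrays outside batch 3. Batch was not removed from those values, so the part of batch 3 in this likeness was not tested.

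All 17 luminal and all 13 adipocyte genes passed the filter, but a few arrays over 7.645 suffice for that, so it does not describe each array. The white adipocyte mean was 9.29 or more in every array. The luminal mean was under 7.645 in pre-pubertal replicates 2 (6.63) and 9 (7.48) and over it in all other arrays. Some arrays also held skeletal muscle or lymphoid markers. The skeletal muscle mean ranged from 6.67 to 9.58 in peri-pubertal and from 6.67 to 9.70 in pre-pubertal arrays, from 6.81 to 9.34 in lactation and from 6.72 to 6.77 in pubertal arrays, and from 6.58 to 7.15 in parous and from 6.69 to 10.09 in nulliparous arrays. With the muscle mean as a covariate the Prlr log2 difference was 2.29 ± 0.22 in peri-pubertal relative to pre-pubertal glands and -1.45 ± 0.33 in lactation relative to pubertal glands. With the mean of the T and B cell lists they were 1.97 ± 0.24 and -1.55 ± 0.29.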

How the data were processed

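Biotin-labelled total RNA from 33 rat glands was measured on Affymetrix arrays that cover whole transcripts. The authors deposited log2 values for 36685 probe sets. Per the submitters' processing notes they come from Expression Console with RMA, a method that corrects background, normalizes across arrays and summarises each probe set; no version is given in those notes. RMA can compress high values, and the table holds no detection calls; precision is limited by the number of arrays.

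Of the probe sets, 18511 had 1 gene symbol, 575 several and 17599 none listed in the platform annotation; 18394 of the 18511 matched RefSeq by gene identifier. For 291 genes with several probe sets, the one of highest mean was kept. With limma 3.58.1 in R 4.3.3, a model of stage and batch was fitted over all 33 arrays (25 residual degrees of freedom, moderated variances with trend), with two-sided tests and Benjamini-Hochberg adjustment over 10986 genes per comparison. The comparisons share arrays. The fit was tested on simulated data. Alternatives covered batch, filter, normalization, variance model, cell-list covariates, the comparator, the threshold and single arrays left out.

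The 6 genes and the lists were chosen with earlier results of these data known. Named beside the 6 genes are, per pathway list and comparison, up to 3 called genes of smallest adjusted p, and per gene the 3 others of highest Pearson r. Motifs were searched in RefSeq promoter windows (GRCr8); the build behind the array annotation is not given in the sources used here, and no array coordinates were used.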

Additional observations from a re-analysis of the deposited data

How the results depend on the processing

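The 6 genes were recomputed 1002 times over comparisons and alternatives, and 955 values kept their direction and side of the threshold, counting as kept 59 values called in neither fit whose sign changed; the largest in size was Prlr in parous relative to lactating glands, at 0.85 and at -0.009 with the adipocyte mean as a covariate. The call was lost in 37 and gained in 9, and 1 reversed with a change of comparator in the same fit. Stat5a in lactation was -0.62 against nulliparous glands (adjusted p = 0.0291) and 0.08 relative to pubertal glands. As Stat5a was 0.70 higher in nulliparous than in pubertal glands, the change of sign follows from the comparator. In peri-pubertal relative to pre-pubertal glands 3 genes were called, and 2 without batch 3. Only Prlr was called without a batch term, within batch 2 and with the luminal mean as a covariate. Calls over all 10986 genes also changed, from 3552 to 643 within batch 2, 318 with the luminal mean and 3631 without batch 3. In nulliparous relative to pubertal glands the 1 call became 0 without a batch term and at an adjusted p under 0.01. Over all genes the calls went from 469 to 399 and 148 in these fits. In lactation relative to pubertal glands the 1 call became 0 with the adipocyte mean and 2 with arrays centred on their median, which added Cish. Over all genes the calls went from 4472 to 2689 and 4892 in these fits. In parous relative to lactating glands the 1 call became 0 without a batch term, with the adipocyte mean and at an adjusted p under 0.01. It became 2 with the luminal mean or the T and B cell mean, which added Prlr (1.5 and 1.18). Over all genes the calls went from 3610 to 3001, 3247, 2245, 2951 and 4010 in these fits, in that order. In the adipocyte and luminal means the lactation arrays overlapped no other stage, so those fits cannot tell lactation and these markers apart. With each array left out, the calls ranged from 2 to 4, 0 to 1, 0 to 1, 1 to 2, 0 to 2 and 0 to 0 in peri-pubertal against pre-pubertal, pubertal against peri-pubertal, nulliparous against pubertal, lactation against pubertal, parous against lactation and parous against nulliparous glands. In parous relative to lactating glands Prlr was called without the first lactation array (1.02, adjusted p = 0.0449) or the second parous array (0.97, adjusted p = 0.0477). Jak2 was called in peri-pubertal relative to pre-pubertal glands without the second peri-pubertal array (0.36, adjusted p = 0.0117) and with array weights (0.33, adjusted p = 0.00354). Without a batch term the genes called over the whole array were 1325 against 3552 in the first comparison and 1780 against 4472 in lactation relative to pubertal glands. Parous relative to lactating glands could not be fitted within 1 batch or from those groups alone, as they share no batch. No paired analysis was possible because the labels give the groups no shared replicate numbers.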
